A study of Mus musculus with 6 samples.

Results

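Very wide open regions were peaks of accessible chromatin whose end minus start in the deposited peak list was 3000 bp or more, a rule that used no signal value. It took 951 of 97124 peaks (0.979%), which held 4.97% of all bases in peaks. All samples were B-cells from the bone marrow of mice labelled PEtg, a strain name that the labels do not spell out, and the series title places the work in a study of pre-leukemic stem cells. All 6 samples shared that strain and tissue. Cells had been sorted by H2B-GFP, a fluorescent histone whose label is shared between daughter cells, so that retained label marks few divisions: 3 samples were H2B-GFP high and labelled quiescent, and 3 were H2B-GFP low and labelled proliferating. Nothing in the sources used here gives the age of the mice, the driver of H2B-GFP or whether each sample was a mouse of its own. The p-values therefore reflect the spread of these samples alone, part of which may be technical. Accessibility was read by ATAC-seq, in which a transposase inserts sequencing adapters into open DNA. In such bulk samples, fewer cells with an open region and less opening per cell cannot be told apart.

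Most open sites are short stretches freed of nucleosomes where transcription factors bind. Longer stretches occur at active promoters, especially over stretches rich in CG dinucleotides, and at clusters of enhancers around genes that define a cell type. In B-cell precursors such genes include those for transcription factors (Pax5, Ebf1, Ikzf1, Foxo1), for the pre-B receptor (Igll1, Vpreb1) and for its signalling proteins.

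Promoters under 6 wide regions are printed because these regions recur in the results: Gne and Trem1 were higher in quiescent cells, Rubcnl and Gfi1 were lower, and Bcl6 and Erg had 2 of the 10 widest regions. Each is the 250 bases before a start of the gene from RefSeq (GRCm38.p6, the assembly behind mm10), written 5′ to 3′ on the strand of the gene with every CG dinucleotide in capitals. The starts printed for Erg and Gne lie inside the gene, since their regions were at least 91334 and 9641 bp from the gene boundaries.
Gne, chr4:44072718-44072967, minus strand: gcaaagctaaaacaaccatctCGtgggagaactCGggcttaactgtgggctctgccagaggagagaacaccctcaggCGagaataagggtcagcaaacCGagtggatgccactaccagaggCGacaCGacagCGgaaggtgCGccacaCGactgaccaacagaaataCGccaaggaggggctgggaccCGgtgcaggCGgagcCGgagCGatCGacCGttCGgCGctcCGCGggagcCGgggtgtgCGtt
Trem1, chr17:48232489-48232738, plus strand: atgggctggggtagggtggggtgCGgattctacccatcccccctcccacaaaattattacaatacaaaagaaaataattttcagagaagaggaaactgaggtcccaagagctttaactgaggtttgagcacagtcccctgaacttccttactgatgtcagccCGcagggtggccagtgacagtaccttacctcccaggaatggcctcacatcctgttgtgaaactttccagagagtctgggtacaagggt
Rubcnl, chr14:75015777-75016026, plus strand: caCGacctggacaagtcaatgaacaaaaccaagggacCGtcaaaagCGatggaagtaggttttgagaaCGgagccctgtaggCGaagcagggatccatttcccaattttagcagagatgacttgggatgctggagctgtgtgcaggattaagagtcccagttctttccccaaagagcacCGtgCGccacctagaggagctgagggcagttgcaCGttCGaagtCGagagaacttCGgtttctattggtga
Gfi1, chr5:107725806-107726055, minus strand: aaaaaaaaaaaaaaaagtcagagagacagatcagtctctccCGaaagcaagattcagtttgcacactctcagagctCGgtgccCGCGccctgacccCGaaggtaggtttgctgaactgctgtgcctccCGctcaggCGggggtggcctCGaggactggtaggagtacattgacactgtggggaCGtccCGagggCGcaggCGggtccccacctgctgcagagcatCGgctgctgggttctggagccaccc
Bcl6, chr16:23988853-23989102, minus strand: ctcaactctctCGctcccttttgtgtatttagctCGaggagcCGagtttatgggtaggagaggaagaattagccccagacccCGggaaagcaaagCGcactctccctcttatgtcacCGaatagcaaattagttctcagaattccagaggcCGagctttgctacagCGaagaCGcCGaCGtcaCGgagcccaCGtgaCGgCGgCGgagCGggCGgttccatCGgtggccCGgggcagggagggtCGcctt
Erg, chr16:95459349-95459598, minus strand: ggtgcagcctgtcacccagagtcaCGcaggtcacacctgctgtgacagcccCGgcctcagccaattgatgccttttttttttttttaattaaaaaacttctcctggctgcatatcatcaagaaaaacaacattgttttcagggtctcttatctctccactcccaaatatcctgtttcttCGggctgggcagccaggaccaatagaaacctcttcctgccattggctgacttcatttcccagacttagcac
Bcl6 held 21 CG dinucleotides in the 250 bases and Gne held 22, with observed over expected CG ratios of 0.987 and 0.93. Erg held 3 (0.23) and Trem1 held 2 (0.13), while Rubcnl held 11 (0.688) and Gfi1 held 13 (0.594). Of the regions higher in quiescent cells, Gne was thus rich in CG and Trem1 poor, while the lower Rubcnl and Gfi1 lay between them.

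The median wide region spanned 3571 bp, against 547 bp for all peaks, and the widest spanned 13023 bp. By width, 666 regions were under 4000 bp, 197 were 4000 bp to under 5000 bp and 88 were 5000 bp or more. The threshold cut a continuous range: just inside it lay Zfp710 (3002 bp), Ppp1r21 (3003 bp) and Taf11 (3004 bp), with log2 fold changes of -0.20, -0.01 and -0.07, and just outside lay Irf2, Rnf41 and Med13l (2999 bp each), with -0.08, -0.35 and -0.22. Mean signal per peak at those 6 was 475.6, 3527, 580.6, 763, 1766 and 919.7. The sources used here do not give how nearby peaks were merged, and 61.8% of wide regions had another peak within 1000 bp, against 41.1% of all peaks.

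Wide regions were strong as well as long. Their median signal, a scaled read value that the authors deposited for each peak and sample, was 1678, against 68.54 over all peaks, and per kb of peak it was 447 against 128. Of the 951, 320 (33.6%) lay in the strongest hundredth of all peaks and 908 in the strongest 10%. All 951 passed the filter on low values, and the lowest read number behind any member value was 80, in proliferating sample 1. Over all 97124 peaks, which share the 6 libraries, width and mean signal had a Spearman correlation of 0.889, and within the 951 it was 0.353.

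Many wide regions lay over gene starts. A start of a protein-coding gene lay within 321 of them (33.8%), against 8.31% of all peaks, and within 46.6% of those of 5000 bp or more. Within 1 kb of either boundary of a gene, taken without strand, lay a further 124 (13.0%, against 9.97%). This class can hold gene starts that were not known as well as gene ends. Of the rest, 271 (28.5%, against 44.8%) lay elsewhere in a gene body, and 235 (24.7%, against 36.9%) lay between genes. Peaks of 2000 to 2999 bp, just below the threshold, were placed much like the wide regions. Of these, 29.8% covered a start, 12.4% lay within 1 kb of a gene boundary, 31.2% in a gene body and 26.5% between genes. Starts were known for 17492 of 21900 protein-coding genes, with none on chromosome 18, where 24 wide regions lay, so the number over starts is a lower count. Of the 321 regions, 40 covered the starts of 2 genes and 4 those of 3 or more, and 38 covered a pair of genes that point away from each other. Starts of genes not labelled protein-coding lay in 99 wide regions.

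**Figure D1:**
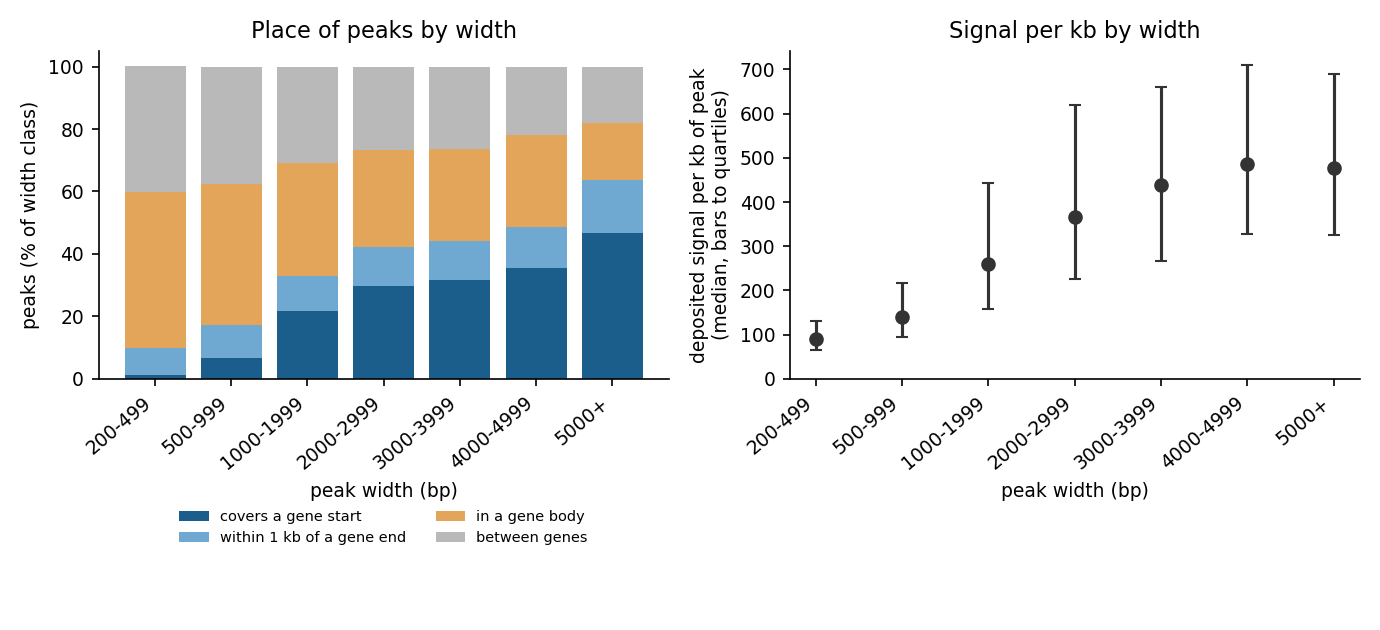
All 97124 peaks by width class in bp: left, the share of each class (%) that covers the start of a protein-coding gene, lies within 1 kb of a gene end, lies in a gene body or lies between genes, and right, the median deposited signal per kb with bars to the quartiles. Gene end here means either boundary of a gene. The share over a gene start was 1.35% at 200 to 499 bp, 29.8% at 2000 to 2999 bp and 46.6% at 5000 bp or more.

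Around the starts they covered, wide regions reached a median of 1623 bp upstream and 2063 bp into the gene, and 192 of 321 (59.8%) reached further into the gene. Narrower peaks over starts reached 637 bp upstream and 552 bp downstream, with 43.4% reaching further into the gene. At least 1000 bp on both sides was covered by 71.3% of wide regions and 3.75% of narrower peaks. These contrasts follow in large part from the width rule. A peak under 2000 bp, as 92690 of all peaks were, cannot reach 1000 bp on both sides. Where a region covered several starts, the distances ran from the one nearest its middle.

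**Figure D2:**
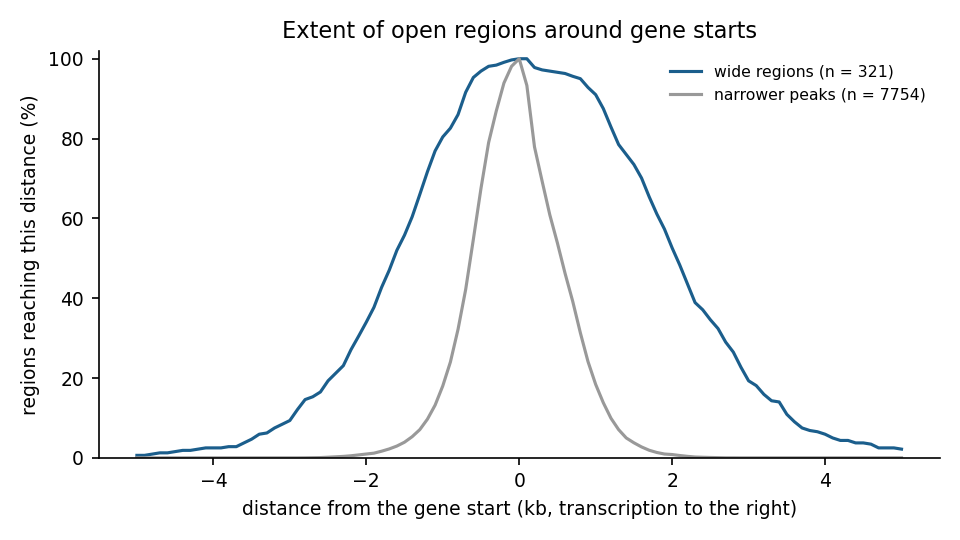
Share of regions (%) that reach a given distance (kb, transcription to the right) from the start of a protein-coding gene they cover, for 321 wide regions and 7754 narrower peaks. At 2 kb into the gene the shares were 52.6% for wide regions and 0.825% for narrower peaks, which follows in part from the width rule itself.

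Promoters rich in CG were less frequent at starts in wide regions than at starts in narrower peaks, and more frequent than at starts outside peaks. Of 458 promoter entries whose start lay in a wide region, 61.1% had an observed over expected CG ratio above 0.6, against 71.2% of 9420 in narrower peaks, 21.9% of 10207 in no peak and 45.9% of all 20085. The GC box GGGCGG, searched on both strands, was in 52.6% of the 250-base windows under wide regions, 59.8% under narrower peaks, 27.8% outside peaks and 43.4% of all. The ETS letters CCGGAA were in 18.1%, 25.6%, 5.75% and 15.3% in the same order. The RUNX letters TGTGGTT were in 3.93%, 3.15%, 4.48% and 3.84%, and the EBF letters CCCNNGGG were in 16.8%, 14.9%, 12.8% and 13.9%. These are matches of letters and not measured binding.

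More of the listed B-lineage genes than of other listed genes had a wide region. Per peak, receptor and surface genes stayed above the other lists, while B-lineage factor genes were below immediate-early genes and little above cell cycle genes. Each region was given to the protein-coding gene whose start it covers, else the one it overlaps, else the nearest within 100 kb, so the name gives a location and no proven target, and 29 regions had none. Of 40 listed B-lineage factor genes with a peak, 26 (65.0%) had a wide region, and of 48 listed B-cell receptor and surface genes 23 (47.9%) did, against 781 of 15432 genes (5.06%) overall. The share was 42.4% of 33 immediate-early genes, 23.5% of 34 quiescence and growth arrest genes, 14.0% of 43 cell cycle genes and 10.7% of 28 housekeeping genes. None of 18 myeloid and none of 13 erythroid and megakaryocyte marker genes had one. Among 22 T and NK cell markers only Cd2, an adhesion receptor of lymphocytes, had one, and among 15 plasmacytoid dendritic and plasma cell markers Mzb1 and Slamf7 did. None of those 3 regions passed the limma test between the groups (0 at an unadjusted p under 0.05, 1 with limma-voom on reads scaled to totals). Listed genes had many peaks, and of those peaks 3.2% were wide at B-lineage factor genes, 5.77% at receptor and surface genes, 3.46% at immediate-early genes, 2.85% at cell cycle genes, 2.76% at quiescence and growth arrest genes and 2.42% at housekeeping genes, against 0.979% of all peaks. Of the marker genes of other cells, 0 of 109 myeloid peaks and 0 of 71 erythroid and megakaryocyte peaks were wide, with 0.699% of 143 T and NK cell peaks and 1.6% of 125 plasmacytoid dendritic and plasma cell peaks. These lists also served as the check of the labelled cell type, and the shares are not adjusted for the length of the genes.

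Several loci held a row of wide regions. Of the 781 genes, 105 had 2 or more and 6 had 4 or more. Erg, an ETS transcription factor gene of stem and progenitor cells, had 6, and Inpp5d, which encodes the SHIP1 phosphatase that limits PI3K signalling, had 5. Aff1, Akap13, Chst3 and Lhpp had 4 each. The 6 Erg regions were 10411, 5758, 5495, 4886, 4579 and 3375 bp wide, and their log2 fold changes ran from -0.14 to 1.10. The 3375 bp region was the only one of the 6 past the threshold.

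The 10 widest regions lay at Mgat1 (13023 bp), Erg (10411 bp), Ly6e (9527 bp, 27569 bp away between genes), Bcl6 (8942 bp), Cmtm7 (8940 bp), Serinc3 (8494 bp), Trp53i11 (8151 bp), Grk2 (8028 bp), Tgif1 (7728 bp) and a group of 5 histone genes around H2bc7 (7585 bp). None of the 10 passed limma (0 at an unadjusted p under 0.05), where 6.72% of all tested peaks did, while limma-voom called 1 higher on reads scaled to totals (5.01% of all tested peaks and 9.36% of wide regions were) and 6 higher with median-of-ratios scaling (9.98% of all tested peaks and 29.7% of wide regions were). With the replicate number as a block, 1, at H2bc7, had an adjusted p under 0.05 (0.0179). Mgat1 encodes the enzyme that starts complex N-glycans, and its region (chr11:49240515-49253538) had a signal of 6397.3, 4873.8 and 4854.1 in quiescent samples 1, 2 and 3, against 4695.8, 4486.9 and 4612 in proliferating samples 1, 2 and 3. The quiescent values were all above the proliferating ones, by a log2 fold change of 0.21 ± 0.12 SE (limma adjusted p = 0.3). Bcl6 encodes a transcriptional repressor of B cells, and its region (chr16:23981841-23990783) had 3069.1, 3183.5 and 2843.6 in quiescent samples, against 2510.5, 3581.2 and 3838.4 in proliferating samples. Those groups overlapped (-0.10 ± 0.15 SE, adjusted p = 0.73). The Erg region (chr16:95450503-95460914) covers a start that lies inside the gene, at least 91334 bp from its boundaries. There the signal was 5006.6, 6624.7 and 6753.8 in quiescent samples, against 4572.9, 6452.2 and 6774.9 in proliferating samples, and samples of the same number had close values (0.05 ± 0.17 SE, adjusted p = 0.875).

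Between quiescent and proliferating cells, 62 of the 951 wide regions passed the threshold, 18 higher and 44 lower in quiescent cells. The test was limma with an intensity trend on log2(signal + 1) over 87411 peaks and 3 samples in each group, with a Benjamini-Hochberg adjusted p under 0.05. The 62 are 6.52% of wide regions, and 6.72% of all tested peaks passed. By direction, 1.89% of wide regions were higher, against 4.01% of all tested peaks, and 4.63% were lower, against 2.72%. Only 4 wide regions changed by 1 or more on the log2 scale (0.421%, against 11.5% of tested peaks), and the median standard error was 0.135, against 0.29. Peaks of 2000 to 2999 bp were near the wide regions in both, with 1.12% and 0.151. Of those peaks, 3.96% were higher and 3.53% lower. The groups did not overlap at 274 wide regions (28.8%, against 30.4% of all tested peaks), 88 of them higher (9.25%, against 15.4%) and 186 lower (19.6%, against 14.9%). With the replicate number as a block, 69 were higher (7.26%, against 10.2%) and 134 lower (14.1%, against 8.14%).

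The direction of wide regions as a group turned with the scaling. On the deposited values their median log2 fold change was -0.06, against -0.01 over all tested peaks, and 59.8% were below 0, against 50.7%. Peaks of 2000 to 2999 bp had nearly the same values, a median of -0.058 with 58.3% below 0. When reads were recovered from the steps of the values and scaled to their totals, the median was 0.05, against -0.26, and limma-voom called 89 higher (9.36%, against 5.01%) and 41 lower (4.31%, against 9.89%). With median-of-ratios scaling the median was 0.31, against 0.01, and 282 were higher (29.7%, against 9.98%) and 2 lower (0.21%, against 3.99%). Of the recovered reads in peaks, wide regions held 9.49%, 9.22% and 9.64% in quiescent samples 1, 2 and 3, against 8.56%, 8.88% and 8.92% in proliferating samples 1, 2 and 3, and the groups did not overlap. Of the deposited signal they held 8.69%, 8.94% and 9.16% in quiescent samples, against 8.79%, 9.45% and 9.80% in proliferating samples, and the groups overlapped, though the quiescent share was the lower one in all 3 pairs of the same number. Which scaling holds for these samples was not tested. All 18 regions called higher passed under both read scalings, while of the 44 called lower 30 passed with scaling to totals and 2 with median-of-ratios scaling, where 7 changed sign.

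**Figure D3:**
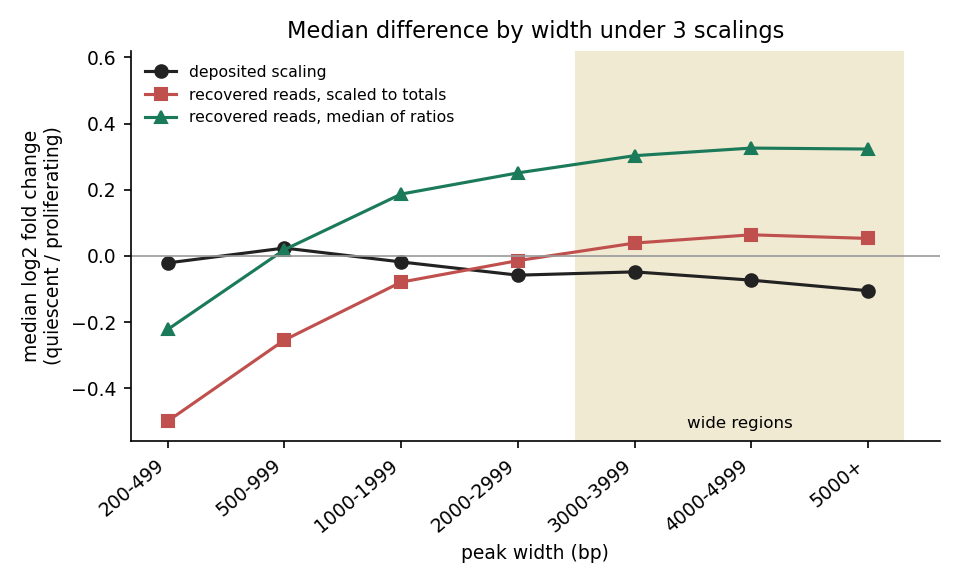
Median log2 fold change of quiescent over proliferating cells by peak width in bp, under the deposited scaling and under 2 scalings of the recovered reads. At 5000 bp or more the median was -0.11 under the deposited scaling, 0.05 with reads scaled to totals and 0.32 with median-of-ratios scaling. In the same order it was -0.06, -0.01 and 0.25 at 2000 to 2999 bp, and -0.02, -0.50 and -0.22 at 200 to 499 bp.

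Wide regions were also set beside narrower peaks of the same 10% class of mean signal, which brings their strengths nearer without matching them. In the strongest 10% the median signal was 1747 for 908 wide regions and 896.9 for 8805 narrower peaks. The median log2 fold change under median-of-ratios scaling was 0.32 for wide regions and 0.33 for narrower peaks. It was 0.054 against 0.07 with reads scaled to totals and -0.055 against -0.009 on the deposited values. In that class on the deposited values, 6.61% of wide regions passed (17 higher and 43 lower), against 11.7% of narrower peaks (577 higher and 454 lower), and 0.33% against 2.94% changed by 1 or more. The next 10% held the other 43 wide regions, with a median signal of 446.8, against 362.4 for 9669 narrower peaks. There the median log2 fold change was lower for wide regions under all 3 scalings. It was 0.08 against 0.19 with median-of-ratios scaling, -0.196 against -0.078 with reads scaled to totals and -0.15 against -0.02 on the deposited values. On those values 4.65% of wide regions passed, against 10.5% of narrower peaks.

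**Figure D4:**
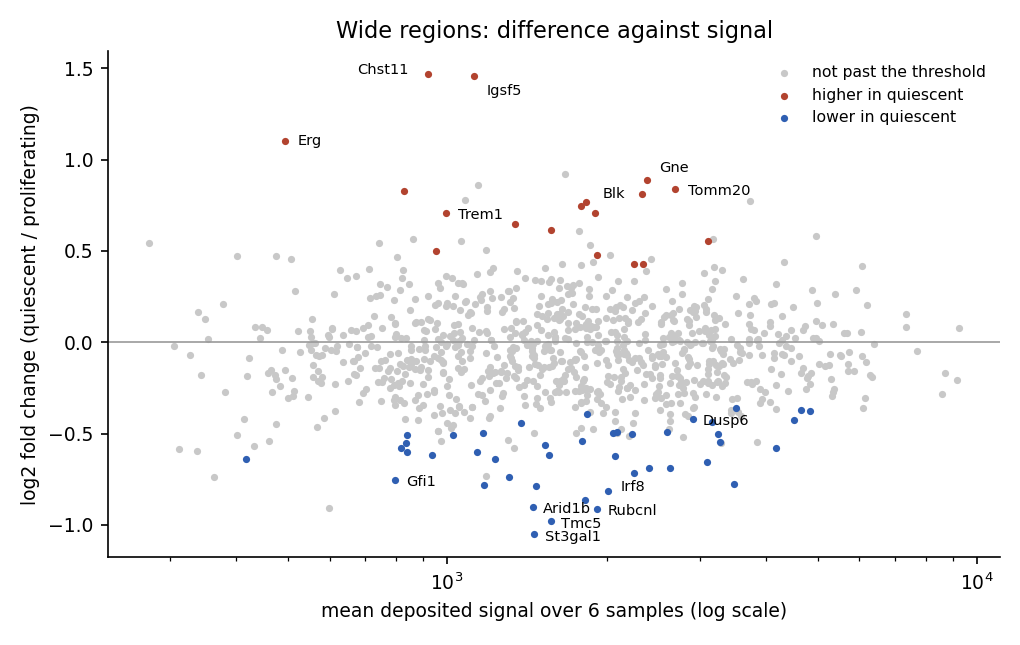
Log2 fold change on the deposited signal (quiescent over proliferating) against mean signal over the 6 samples on a log axis, 1 point for each of the 951 wide regions, with the 18 higher in quiescent cells in red and the 44 lower in blue. Changes ran from -1.05 at St3gal1 to 1.47 at Chst11, and of the 44 lower regions 2 passed with median-of-ratios scaling.

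The 3 regions with the largest rise in quiescent cells lay in gene bodies. The body of Chst11, which encodes a sulfotransferase of chondroitin chains, held one at chr10:83003773-83007268 with 1286.9, 1289.7 and 1480.1 in quiescent samples, against 481.6, 452.1 and 529.1 in proliferating samples. The groups were far apart (1.47 ± 0.13 SE, adjusted p = 0.00505). The region in Igsf5, which encodes an immunoglobulin-family adhesion protein (chr16:96369880-96373492), had 1572.9, 1516.5 and 1831.4 in quiescent samples, against 711.4, 430 and 688.3 in proliferating samples (1.46 ± 0.20 SE, adjusted p = 0.0087). The 3375 bp Erg region (chr16:95414730-95418105) had 724.4, 573.7 and 717.9 in quiescent samples, against 403.1, 239.3 and 312.1 in proliferating samples (1.10 ± 0.21 SE, adjusted p = 0.0202). All 3, picked for passing on these values, stood apart between the groups. The 10411 bp Erg region, picked for its width, covers a start inside the gene and did not.

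Higher regions over gene starts included Gne, the enzyme that opens sialic acid synthesis, at a start inside the gene. Its region (chr4:44071345-44074536) had 2621, 3348.5 and 3325.9 in quiescent samples, against 1775, 1662.2 and 1565.6 in proliferating samples (0.89 ± 0.12 SE, adjusted p = 0.00915). The start of Trem1, a receptor known from myeloid cells (chr17:48230529-48233554), had 1131.1, 1249.8 and 1307.1 in quiescent samples, against 898.5, 621.6 and 759.2 in proliferating samples (0.71 ± 0.16 SE, adjusted p = 0.0319). Trem1 is not among the 18 listed myeloid marker genes with a peak, none of which had a wide region. Peaks at those 18 genes had a median log2 fold change of 0.127, against -0.009 over all tested peaks. Peaks of other lists had similar medians, with 0.1 at B-lineage factor, 0.118 at receptor and surface and 0.112 at immediate-early genes. Plasmacytoid dendritic and plasma cell markers had 0.29. Lower medians were 0.079 at quiescence and growth arrest genes, 0.074 at erythroid and megakaryocyte markers and -0.017 at T and NK cell markers. Cell cycle genes had -0.04 and housekeeping genes -0.073. Whether the samples held myeloid cells was not tested. Blk encodes a Src-family kinase of the B-cell receptor pathway, and its region (chr14:63415282-63420100) lay over a boundary of the gene, either start or end. The signal there was 2570.5, 3094.9 and 3233 in quiescent samples, against 2062.7, 1359.7 and 1701 in proliferating samples (0.81 ± 0.16 SE, adjusted p = 0.0234). The quiescent values were above the proliferating ones at Gne, Trem1 and Blk, which were picked for passing on these values.

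Other higher regions lay between genes near Tomm20, a mitochondrial import receptor (0.84), and Hey1, a repressor of the Notch pathway (0.77), and in the bodies of Dock9, an exchange factor for Cdc42 (0.83), and Scimp, an adaptor of lymphocyte membranes (0.75). The regions near Tomm20 and Hey1 lay 60788 and 29103 bp from those genes. In all, the 18 higher regions fell into 4 over a gene start, 2 at a gene boundary, 8 in a gene body and 4 between genes.

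The region with the largest fall in quiescent cells lay in the body of St3gal1, a sialyltransferase that adds sialic acid to glycoproteins. It (chr15:67143196-67146208) had 897.6, 998.9 and 944.9 in quiescent samples, against 1726.1, 2246.8 and 1948.4 in proliferating samples (-1.05 ± 0.13 SE, adjusted p = 0.00739). This and the region in Arid1b, a subunit of BAF remodelling complexes (-0.90, adjusted p = 0.00886), passed with median-of-ratios scaling too, with adjusted p of 0.00873 and 0.0487. The start region of Rubcnl, an autophagy regulator (chr14:75015526-75019487), had 1925.8, 1093.5 and 1066.8 in quiescent samples, against 2822.5, 2307.2 and 2294.7 in proliferating samples. Quiescent sample 1 was high in its group and still below every proliferating sample (-0.91 ± 0.22 SE, adjusted p = 0.0409, and 0.253 with median-of-ratios scaling).

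Irf8, Gfi1 and Hes1 encode transcription factors, and each had a wide region that was lower in quiescent cells. In Irf8, which encodes a factor of B and myeloid cells (chr8:120745138-120748978), the signal was 1523.9, 1349.4 and 1505.1 in quiescent samples, against 2645.6, 2517.5 and 2541.3 in proliferating samples (-0.82 ± 0.10 SE, adjusted p = 0.00773). Over the start of Gfi1, which encodes a repressor of blood cell development (chr5:107724008-107727412), it was 595.5, 650.8 and 527.4 in quiescent samples, against 820.7, 1183.5 and 1013.1 in proliferating samples (-0.75 ± 0.16 SE, adjusted p = 0.0312). The region 2030 bp from Hes1, a Notch target repressor, had 1137.6, 969.3 and 1125.7 in quiescent samples, against 2141.4, 1795.9 and 1665.6 in proliferating samples (-0.79 ± 0.13 SE, adjusted p = 0.0145). No quiescent value reached a proliferating one at any of the 3, which were picked for passing on these values. With median-of-ratios scaling the adjusted p was 0.0663 at Irf8, 0.0725 at Gfi1 and 0.16 at Hes1.

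Regions in Plcg1, a phospholipase C gene of receptor signalling (-0.77), in Lhpp, a phosphatase gene (-0.78), and over the start of Dusp6, whose phosphatase turns off ERK, were lower too. The 7193 bp region over the start of Dusp6 (chr10:99259550-99266743) had 2502, 2494.2 and 2458.9 in quiescent samples, against 3167.9, 3346.7 and 3460.6 in proliferating samples (-0.42 ± 0.09 SE, adjusted p = 0.029). Both groups were tight and apart, but the log2 fold change was 0.01 with median-of-ratios scaling. Tmc5, of the transmembrane channel-like family (-0.98), and Fermt1, an integrin activator 74260 bp away (-0.86), complete the 10 lowest. The 44 lower regions fell into 14 over a gene start, 2 at a gene boundary, 19 in a gene body and 9 between genes.

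**Figure D5:**
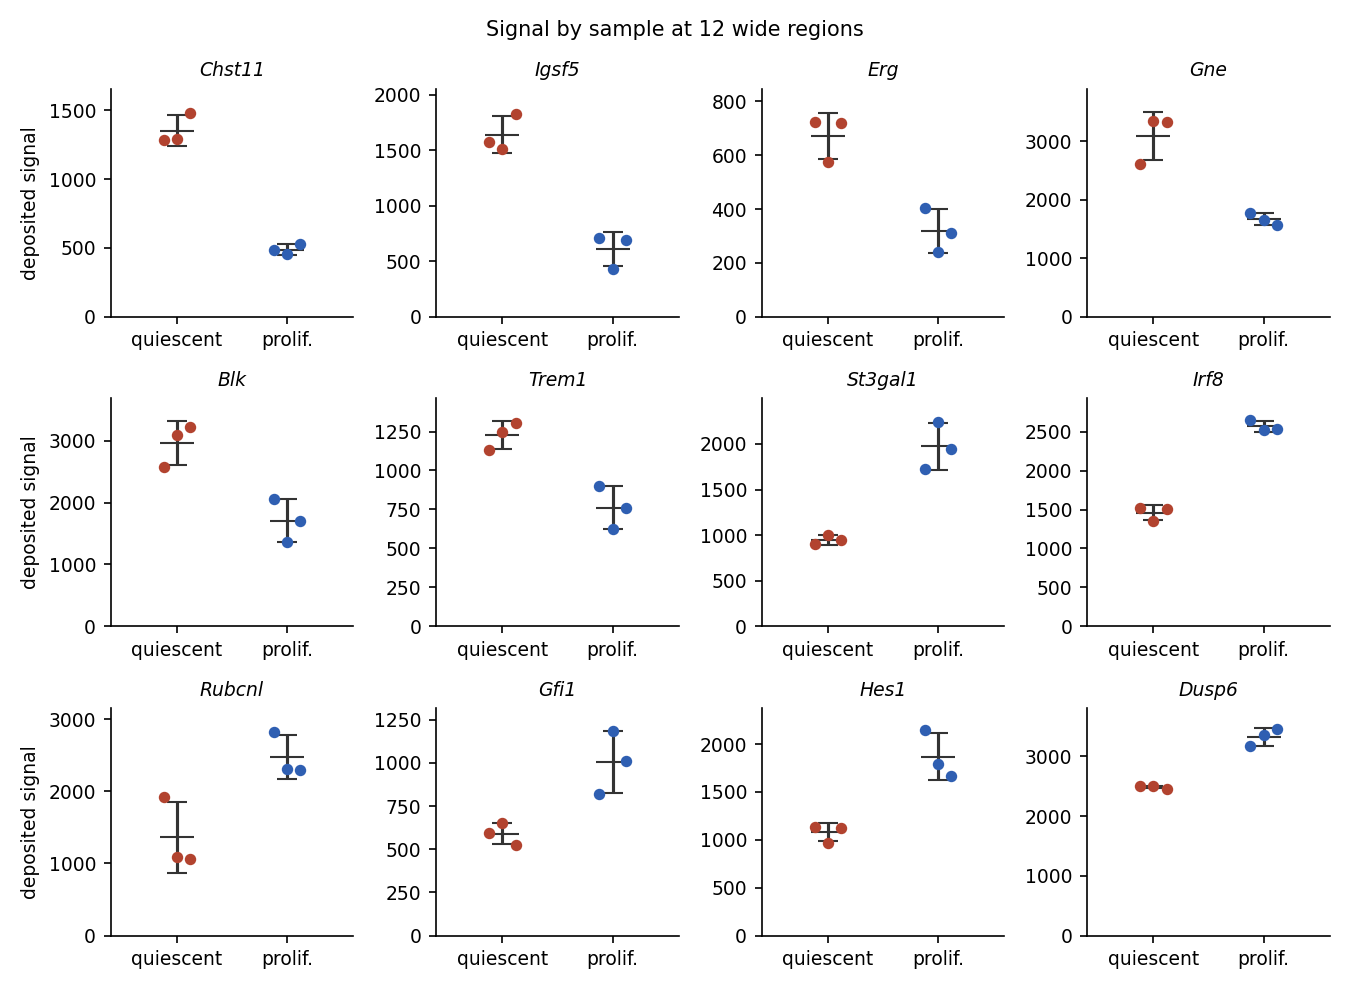
Deposited signal by sample at 12 wide regions past the threshold, 3 quiescent samples on the left and 3 proliferating samples on the right of each panel, with the mean and SD. The groups do not overlap in any panel, but the regions were picked for passing on these same values, so this adds no support. Without such a choice, 28.8% of wide regions and 30.4% of all tested peaks had no overlap. The 6 regions higher in quiescent cells passed under both scalings of recovered reads. Of the 6 lower ones St3gal1 alone passed with median-of-ratios scaling, where Dusp6 was at 0.01.

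The B-lineage lists, chosen with earlier results of these data known, are set beside the 6.72% of all tested peaks and 6.52% of wide regions that passed. Of 39 regions at B-lineage factor genes, 4 passed (10.3%): Erg was higher, and Irf8, Gfi1 and Nfkb1, an NF-kappa-B subunit gene (-0.56, adjusted p = 0.0345), were lower, with a median of -0.11 that was 0.30 with median-of-ratios scaling. With the block 1 was higher and 7 were lower. Regions at Pax5 (0.01), Ebf1 (-0.04 and -0.26) and Ikzf1 (-0.13) did not pass. Of 30 regions at receptor and surface genes 1 passed (3.33%): Blk was higher and none was lower (4 had an unadjusted p under 0.05 in that direction, 3 passed with the block and 0 with limma-voom at scaling to totals), with a median of 0.02 that was 0.46 with median-of-ratios scaling. Regions at Igll1 and Vpreb1, the surrogate light chain genes, had log2 fold changes of -0.27 and -0.11.

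None of 8 wide regions at cell cycle genes and none of 14 at quiescence and growth arrest genes passed limma, in lists so short that the 6.72% of all tested peaks would come to fewer than 1 region in each. At an unadjusted p under 0.05 there were 3 and 2, with the replicate block 2 and 0, and with limma-voom on reads scaled to totals 0 and 2. The region in Ccnd2, the gene of cyclin D2, lay within 1 kb of a gene boundary, start or end, as strand was not used. It had 304.2, 312.5 and 358.8 in quiescent samples, against 220.8, 220.1 and 225.9 in proliferating samples, without overlap (0.54 ± 0.16 SE, adjusted p = 0.074, and 0.0294 with the block). Over the start of Mcm6, a subunit of the replication helicase, the signal was 406.3, 539.3 and 478.9 in quiescent samples, against 503.9, 727.1 and 750.7 in proliferating samples, with overlap (-0.46 ± 0.19 SE, adjusted p = 0.18, and 0.0292 with the block). At the Myc gene the log2 fold change was -0.36 (adjusted p = 0.207). Over the start of Klf6, a growth-restraining factor gene, it was 0.25 (adjusted p = 0.185). Of 15 regions at immediate-early genes 1 passed (6.67%): Dusp6 was lower and none was higher (0 at an unadjusted p under 0.05, 0 with the block, 0 with limma-voom at scaling to totals, against 5 with median-of-ratios scaling).

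How many regions passed depended on which library was left out. Without quiescent sample 3, 0 wide regions and 0 of all tested peaks (0.0%) passed limma, and 185 wide regions had an unadjusted p under 0.05. Without quiescent sample 2 there were 1 higher (against 0.0904% of all tested peaks) and 0 lower (against 0.0938%), and 97 wide regions were lower at an unadjusted p under 0.05. Without proliferating sample 2 there were 3 higher (0.636% of all tested peaks) and 7 lower (0.268%), and without proliferating sample 3 there were 4 higher (0.861%) and 8 lower (0.466%). The medians of the 18 and 44 called regions kept their sign in each of these. That was largely fixed in advance, since the regions were chosen by direction and adjusted p with all 6 samples.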

How the data were processed

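ATAC-seq signal was compared at wide peaks between 3 quiescent and 3 proliferating samples, grouped by the phenotype in the labels. Libraries came from a commercial kit and each was sequenced in 2 runs, per the labels' protocols. Bowtie2, SAMtools and MACS2, with build mm10, are the tools in the submitters' processing notes. For versions, settings, peak merging, counting and scaling the sources used here give nothing.

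The authors deposited 1 scaled signal value per sample and peak, in 1 peak list for all samples. Low values lay on steps, the value of 1 read, which changed with peak strength. Reads were recovered by following the steps in windows of 300 peaks over 4 rounds, and 99.69% to 100% of values of 1 to 1000 reads came within 0.1 of a whole number (74.55% to 97.58% at wide regions). By sample they summed to 28197495 (1), 14022188 (2) and 18607570 (3) for quiescent cells, against 8052708 (1), 31655775 (2) and 48827100 (3) for proliferating cells. Recovery and the limma test were tested on simulated data.

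The test was limma 3.58.1 in R 4.3.3 on log2(signal + 1), with an intensity trend, over the 87411 peaks above the lowest 10% by mean, with Benjamini-Hochberg adjustment over all of them. Fold changes are quiescent over proliferating. Recovered reads were tested with limma-voom, scaled to their totals or by median-of-ratios, and the closing section gives the other alternatives. Same-numbered samples deviated together (r = 0.43, 0.285 and 0.21 over peaks), so the numbers from the sample titles were taken to pair the samples, and the block was run as an alternative. Quiescent 2 with proliferating 3 (0.22) and quiescent 3 with proliferating 2 (0.146) also deviated together, and the other 4 pairs had r from -0.361 to -0.212, so the pairing rests mainly on the samples numbered 1.

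Gene places came from a RefSeq table of GRCm38.p6, and starts from its promoter table. The width rule's members, the gene lists and the tests were chosen with earlier results of these data known. Named regions were the 10 widest, the 10 with the largest and lowest change past the threshold, the 5 highest and 5 lowest in signal per kb, up to 4 per gene list by adjusted p, and the 3 on either side of the width threshold. A list of non-coding host genes gave no result, since only protein-coding genes were assigned. Python 3.11.15, scipy 1.17.1, pandas 2.3.3, numpy 2.4.6 and matplotlib 3.10.9 served for the rest.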

Additional observations from a re-analysis of the deposited data

How the results depend on the processing

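A pseudocount of 10, no filter on low values, only peaks above the median tested and centring on the median of all peaks gave 18 to 21 higher and 39 to 46 lower wide regions. With the replicate block, which pairs samples of the same number, 69 were higher, 134 lower and 15999 of all peaks passed, and all 62 regions called without it were kept. Recovered reads scaled to totals gave 89 higher, 13026 of all peaks and a median of 0.046. Median-of-ratios scaling gave 282 higher, 2 lower, 12213 of all peaks and a median of 0.312. Without the intensity trend there were 2 higher, 3 lower and 3247 of all peaks. Leaving out 1 sample gave 0 to 27 higher, 0 to 77 lower, 0 to 8241 of all peaks and medians of -0.107 to -0.027, and the 77 came without proliferating sample 1. A width of 2500 bp or more gave 56 higher and 89 lower among 1983 regions with 15.8% of the signal, and 4000 bp or more gave 2 higher and 7 lower among 285 regions with 3.62%, against 9.13% at 3000 bp. Fewer or more regions entered there, and for the other settings the cause was not tested. Counting starts within 500 bp gave 332 regions over a start instead of 321, and 3 kb around gene boundaries gave 152 instead of 124.

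Signs turned at 18 of the 55 named regions, and Dusp6 was the only one of them past the threshold. With median-of-ratios scaling the values were 0.451 at the wider Ly6e region, 0.046 at the 3344 bp Ly6e region, 0.277 at Bcl6, 0.338 at Trp53i11, 0.239 at Grk2, 0.201 at H2bc7, 0.312 at Alyref2, 0.381 at Wdfy4, 0.339 at Tprg, 0.076 at Frmd6, 0.041 at Cd52, 0.105 at Zfp36l2 and 0.011 at Dusp6. With totals they were 0.175 at the wider Ly6e region, 0.07 at Trp53i11, 0.04 at Alyref2, 0.163 at Wdfy4 and 0.095 at Tprg. Leaving out 1 sample gave -0.123 to 0.194 at the 10411 bp Erg region, -0.155 to 0.091 at the wider Ly6e region, -0.292 to 0.015 at Bcl6, -0.013 to 0.097 at Cmtm7, -0.082 to 0.176 at Serinc3, -0.195 to 0.033 at Trp53i11, -0.15 to 0.131 at Tgif1, -0.193 to 0.239 at Eapp, -0.254 to 0.162 at the 3344 bp Ly6e region and -0.166 to 0.029 at Frmd6. Of the 22 named regions past the threshold, 1, at Chst11, passed without quiescent sample 2 and 0 without quiescent sample 3. Where 1 sample was left out, the other group kept 3 samples and limma pooled the spread. Depth was lowest in proliferating sample 1, where the weakest wide region held 80 reads.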

Other observations

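Histone and tRNA genes were among the wide regions, and these groups were chosen after their values were seen. Of 67 replication-dependent histone genes, which supply histones during DNA replication, 24 lay in 10 wide regions. None of the 10 passed limma, against 6.72% of all tested peaks, and 2 had an unadjusted p under 0.05. With the replicate block 3 passed (18.3% of all tested peaks did), and limma-voom on reads scaled to totals called 1 (14.9%). Of the 10, 8 were below 0, with a median of -0.17 that was 0.25 with median-of-ratios scaling. The region at H2ac11 had 2833.6, 3584.6 and 2889.9 in quiescent samples, against 3398.4, 5211.5 and 5158 in proliferating samples, with overlap (-0.55, adjusted p = 0.0925, and 0.00513 with the block). The region at H2ac13 had 2787.8, 3379.4 and 3098.7 in quiescent samples, against 3506.7, 4326.3 and 4451 in proliferating samples, without overlap (-0.40, adjusted p = 0.0803, and 0.00707 with the block). Of 430 tRNA genes, 48 lay in 19 wide regions, which differed little between the groups: log2 fold changes ran from -0.32 to 0.19, and none passed limma (0 at an unadjusted p under 0.05, 0 with the block, 0 with limma-voom at scaling to totals and 4 with median-of-ratios scaling), against 6.72% of all tested peaks with limma.

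The immunoglobulin heavy-chain locus held 3 wide regions over 4 of 259 immunoglobulin segments. The region over the joining segments Ighj3 and Ighj4 (chr12:113425296-113429228) had 3299.5, 3886.5 and 4023 in quiescent samples, against 2343.8, 3185 and 3028.9 in proliferating samples. Every quiescent value was above every proliferating one, by 0.40 (limma adjusted p = 0.115, and 0.0083 with the block). The 6722 bp region at Ighm, the constant gene of IgM, had 625.5, 845.8 and 1076.1 in quiescent samples, against 758.8, 994.2 and 932.4 in proliferating samples, with overlap.

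Signal per kb ranged widely among wide regions. The 5 highest lay at Alyref2, Wdfy4, Eapp, Stoml1 and Tprg, and the 5 lowest at Ccnd2, Ly6e, Ndrg1, Frmd6 and Hdac7. None of these 10 passed limma (adjusted p from 0.074 to 0.975), where 6.72% of all tested peaks did. Among the 5 lowest, 1 higher and 2 lower had an unadjusted p under 0.05. As many passed with the block, where 18.3% of all tested peaks did. Limma-voom on reads scaled to totals called 1 of the 5 highest and 2 of the 5 lowest, against 14.9% of all tested peaks. Sets of 5 are too small to be told apart from these shares. At Ndrg1 the signal was 274.4, 213.2 and 262.5 in quiescent samples, against 342.3, 365.1 and 413.8 in proliferating samples, without overlap (-0.58, adjusted p = 0.077, and 0.0243 with the block). At Hdac7 it was 306.8, 221.9 and 279.4 in quiescent samples, against 415.2, 365.3 and 433.4 in proliferating samples, also without overlap (-0.59, adjusted p = 0.0784, and 0.0165 with the block).

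Other peaks within 10000 bp of the 18 higher regions numbered 62, with a median log2 fold change of 0.39 and 79.0% above 0. Beside the 44 lower regions there were 164 such peaks (-0.05, 44.5% above 0), and beside the 889 other wide regions 3458 (0.12, 59.5% above 0). These neighbours share the libraries of the regions that chose them, and no test was made.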
